A study of Mus musculus with 6 samples.

Results

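The genes described here carry out triglyceride synthesis and make the glycerol-3-phosphate on which it starts. Their 10 members were chosen by name, with earlier results of these data known. The gene symbol of each was looked up in the count table: *Gk*, *Gpd1*, *Gpd2*, *Gpam*, *Agpat2*, *Agpat3*, *Lpin1*, *Lpin2*, *Dgat1* and *Dgat2*. All 10 were found among 35976 rows, and all 10 passed the filter on low counts, which left 14542 genes tested. RNA-seq was performed on brown adipose tissue (BAT) of 3 WT and 3 sST2-KO mice, with 8159442 to 12874809 counts per library. sST2-KO mice lack an intron of *Il1rl1* that holds the stop codon of the soluble receptor sST2, by a CRISPR/Cas9 deletion present in every cell of the body that was designed to spare the membrane receptor ST2L. The WT mice were littermates on the same C57BL/6J background, and the study used 10-week-old males. In both groups the nerves to BAT had been cut surgically, and the mice were kept at thermoneutrality and then exposed to 10 °C for 8 h. No group with intact nerves or without cold was sequenced here, so each difference below is one of genotype in denervated, cold-exposed BAT. The tissue was taken whole, without sorting of cells.

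Triglyceride is built on glycerol-3-phosphate. An acyltransferase of the GPAT family adds the first fatty acid, one of the AGPAT family adds the second to give phosphatidate, a lipin removes the phosphate to give diacylglycerol, and a DGAT enzyme adds the last fatty acid. White fat makes glycerol-3-phosphate mainly from dihydroxyacetone phosphate, whereas brown fat also expresses glycerol kinase, which phosphorylates free glycerol, and its expression there is known to rise in the cold. In brown adipocytes, triglyceride is broken down and rebuilt at the same time during thermogenesis.

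Transcripts for most steps of the route were lower in sST2-KO BAT. Of the 10 members, 7 were called lower at an adjusted p under 0.05 (edgeR's quasi-likelihood test, Benjamini-Hochberg adjustment over all genes tested), against 9.10% of all genes tested, and 0 were called higher, against 10.5%. All 7 were also more than 2-fold lower, against 7.10% of all genes, and 0 were more than 2-fold higher, against 9.04%. These 7 comprise the 3 members that make or oxidize glycerol-3-phosphate (*Gk*, *Gpd1* and *Gpd2*), *Gpam* for the first acylation, *Agpat2* and *Agpat3* for the second, and *Lpin1* for the removal of phosphate. *Lpin2*, *Dgat1* and *Dgat2* were not called. The median log2 fold change of the members was -1.98, and that of all genes tested was 0.034. For these 7 genes the highest knockout value was under the lowest WT value, against 19.6% of all genes, and for 0 members was the lowest knockout value over the highest WT value, against 21.9%. The count of 7 depends on WT replicate 3. It was 1, *Gk* alone, without WT replicate 3, where calls over all genes were 22 lower and 36 higher. Without each of the other libraries in turn it was 5 to 7.

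Several libraries stood apart in the RNA of other cells. WT replicate 2 held 33870 counts of *Alb*, the liver gene for albumin, where the other libraries held 11 to 254, and its summed level of 15 liver genes was 6725 CPM (read counts relative to the library size, which was scaled by edgeR's TMM factors), against 71.6 to 456 elsewhere. The summed level of 18 skeletal muscle genes was 59.0 to 1522 CPM in WT and 4211 to 17608 CPM in sST2-KO, highest in sST2-KO replicate 3, and 4 of these genes were called higher and 0 lower. Macrophage genes summed to 880.3 to 1131 CPM in WT and 1519 to 6675 CPM in sST2-KO (2 of 10 called higher), and T cell genes to 13.9 to 15.5 and 123 to 150.2 CPM (6 of 7 called higher). Erythrocyte genes moved the other way, from 483 to 1582 CPM in WT to 11.0 to 107 CPM in sST2-KO, with 5 of 5 called lower and a median log2 fold change of -4.39. The part of these cells' RNA in the members' levels was not tested. Pan-adipocyte genes summed to 26432 to 31858 CPM in WT and 8071 to 16460.2 CPM in sST2-KO. Of these 10 genes, 2 were called lower and 0 higher, none was at 0 in any library, and the lowest sum was again that of sST2-KO replicate 3. Brown adipocyte genes, which include *Ucp1*, the uncoupling protein of brown fat, summed to 8278 to 15729.6 CPM in WT and 367 to 1891 CPM in sST2-KO. Of these 12 genes, 8 were called lower and 1 higher, and none was at 0 in any library. In bulk tissue, fewer adipocytes and less RNA per adipocyte cannot be told apart. The counts of *Il1rl1*, 6 to 19 in WT and 55 to 142 in sST2-KO, do not separate its soluble and membrane forms and so do not check the genotype.

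*Gk* encodes glycerol kinase, which phosphorylates glycerol to glycerol-3-phosphate. It lies at chrX:84745537-84820435 on the minus strand (GRCm39). *Gk* was at 417, 277 and 434 CPM in the WT libraries (replicates 1 to 3) and 25.5, 56.0 and 36.1 CPM in the same order of sST2-KO replicates. The groups were far apart, since the highest sST2-KO library was well under the lowest WT library, and spread within a group was small beside the gap. Its mean fell from 376 ± 86.5 to 39.2 ± 15.5 CPM (SD, n = 3 per group), which left 10.4% of the WT level. The log2 fold change was -3.26 (SE 0.36, 95% interval -4.09 to -2.43, adjusted p = 0.00912 by edgeR), a 9.61-fold lower level. This was the lowest log2 fold change among the members and stood at rank 70 from the lowest of the genes tested. *Gk* was also the member whose call held in all 6 fits that left out 1 library, with log2 fold changes of -3.63 to -3.03 and adjusted p of at most 0.0482. Of the related kinase genes, *Gk2* had 0 counts in every library, and *Gk5*, at 2.95 to 10.3 CPM over the 6 libraries, was not called (log2 fold change -0.19, adjusted p = 0.797).

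Promoter sequence was read for the gene that fell most, for *Gpam* as the entry enzyme of the route, and for *Lpin2*, which was not called. RefSeq windows (250 bases before to 50 after a start site) were matched for 7 of the 10 members and gave 11 windows, and *Dgat1*, *Dgat2* and *Gpd1* had no entry. Only bases outside annotated exons are printed, 5′ to 3′ on the strand of the gene and placed on GRCm39 by exact match, with motif matches in capitals. The *Gk* stretch lies at chrX:84820436-84820555 and ends 10 bases before the start site. The *Gpam* stretch lies at chr19:55115785-55115904 and ends 114 bases before its start site. The *Lpin2* stretch lies at chr17:71490853-71490972 and ends at its start site, which is inside the annotated gene. *Gpam* and *Lpin2* each have more than 1 window, and a stretch of 1 window is shown for each.
Gk: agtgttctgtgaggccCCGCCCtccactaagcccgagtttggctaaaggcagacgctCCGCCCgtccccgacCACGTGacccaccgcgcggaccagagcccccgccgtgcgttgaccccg
Gpam: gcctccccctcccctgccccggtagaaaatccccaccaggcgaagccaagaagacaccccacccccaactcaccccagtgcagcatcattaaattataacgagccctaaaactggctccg
Lpin2: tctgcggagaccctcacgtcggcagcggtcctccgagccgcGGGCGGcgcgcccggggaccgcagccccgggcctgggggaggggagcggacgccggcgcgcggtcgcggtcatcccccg
The capitals mark, in *Gk*, 1 E-box (CACGTG) and 2 GC boxes (GGGCGG, here on the reverse strand), and in *Lpin2*, 1 GC box. No motif searched was found in the printed *Gpam* stretch. Both strands were searched over the whole windows. The E-box was in 2 of the 11 member windows (of *Gk* and *Lpin2*) and in 7.15% of all 32851 windows. The GC box was in 6 of the 11 member windows and in 35.7% of all windows. These 6 belong to 5 members (*Agpat2*, *Gk*, *Gpam*, *Gpd2* and *Lpin2*). The CCAAT box (CCAAT) was in 2 of the 11 member windows (of *Gpam* and *Lpin2*) and in 37.4% of all windows. The sterol element (TCACNCCAC), in 1.24% of all windows, and the cAMP element (TGACGTCA), in 1.79%, were in 0 of the 11 member windows. Matches to these letters were thus shared by members that fell and by *Lpin2*. The E-box and CCAAT box of *Lpin2* were in windows other than the printed one.

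*Gpd1* encodes the cytosolic glycerol-3-phosphate dehydrogenase, which makes glycerol-3-phosphate from dihydroxyacetone phosphate, at chr15:99615396-99622893 on the plus strand. It was at 2343, 3128 and 3335 CPM in the WT libraries (replicates 1 to 3) and 535, 974 and 289 CPM in the same order of sST2-KO replicates. All sST2-KO libraries were lower than all WT libraries, with sST2-KO replicate 2 highest and replicate 3 lowest within the knockout. The mean fell from 2936 ± 523 to 599 ± 347 CPM (SD, n = 3 per group), with a log2 fold change of -2.30 (SE 0.47, 95% interval -3.39 to -1.20, adjusted p = 0.0199 by edgeR). Its call was lost without WT replicate 2 (adjusted p = 0.0591), WT replicate 3 (0.0788) or sST2-KO replicate 1 (0.0517), while its log2 fold change stayed between -2.86 and -1.96. *Gpd1* shares 1679 exonic bases with the antisense transcript *Gm16537*, which moved in the same direction (log2 fold change -2.22, adjusted p = 0.0204). The kit did not mark strand, and whether the counting used strand is not stated, so reads of this pair cannot be told apart.

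*Gpd2* encodes the mitochondrial glycerol-3-phosphate dehydrogenase, which oxidizes glycerol-3-phosphate back to dihydroxyacetone phosphate and passes the electrons to the respiratory chain. It lies at chr2:57127515-57260734 on the plus strand. *Gpd2* was at 341, 236 and 505 CPM in the WT libraries (replicates 1 to 3) and 45.6, 88.7 and 42.3 CPM in the same order of sST2-KO replicates, and the groups did not overlap. Its mean fell from 360.5 ± 136 to 58.9 ± 25.9 CPM (SD, n = 3 per group), with a log2 fold change of -2.62 (SE 0.40, 95% interval -3.56 to -1.68, adjusted p = 0.0136 by edgeR). The members that make or oxidize glycerol-3-phosphate were thus lower in all 3 cases, at 10.4% (*Gk*), 20.4% (*Gpd1*) and 16.3% (*Gpd2*) of the WT mean. *Gpd1l*, a relative of *Gpd1*, was not called and was at 19.7 to 30.6 CPM in WT and 21.4 to 29.7 CPM in sST2-KO (log2 fold change 0.18, adjusted p = 0.643). The call of *Gpd2* was lost without WT replicate 3 (adjusted p = 0.0608).

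**Figure D1:**
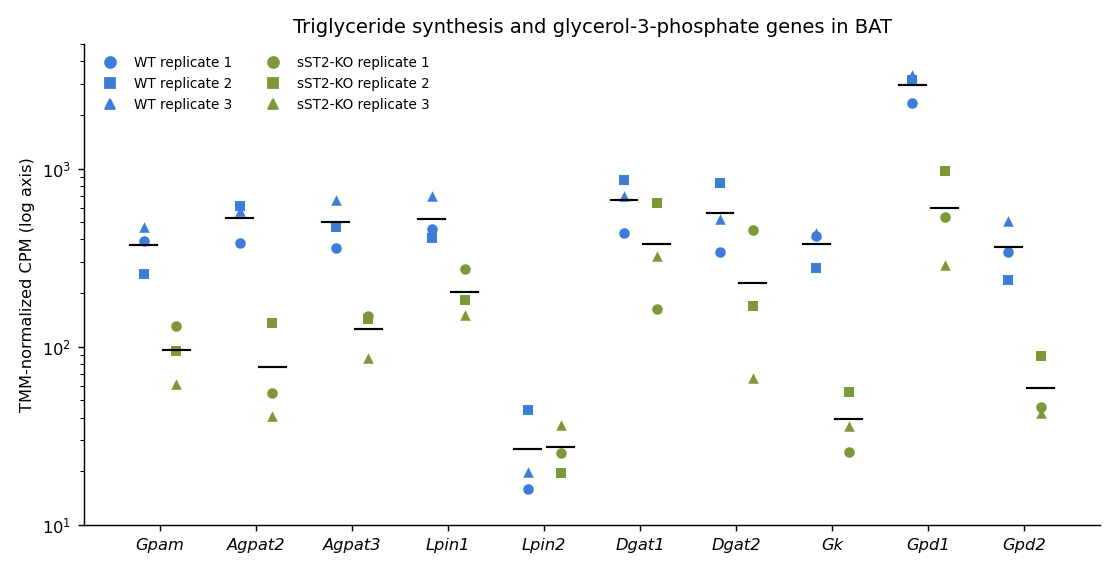
TMM-normalized CPM (log axis) of the 10 genes in each of the 6 libraries, with a horizontal bar at the mean of each group. In 7 genes all sST2-KO symbols lie under all WT symbols, and in *Lpin2*, *Dgat1* and *Dgat2* the groups overlap.

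*Gpam* encodes the mitochondrial glycerol-3-phosphate acyltransferase GPAT1, which adds the first fatty acid, at chr19:55055700-55115784 on the minus strand. It was at 394, 255 and 469.9 CPM in the WT libraries (replicates 1 to 3) and 131, 94.6 and 61.4 CPM in the same order of sST2-KO replicates. The lowest WT library, replicate 2, stayed above the highest sST2-KO library, replicate 1. The mean fell from 373 ± 109 to 95.6 ± 34.6 CPM (SD, n = 3 per group), with a log2 fold change of -1.97 (SE 0.35, 95% interval -2.78 to -1.15, adjusted p = 0.0159 by edgeR). The call was lost without WT replicate 3 (adjusted p = 0.0669).

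*Agpat2* and *Agpat3* encode acyltransferases of the second step. AGPAT2 is the isoform whose loss in humans causes generalized lipodystrophy. *Agpat2* (chr2:26483061-26494637, minus strand) was at 382, 617 and 578 CPM in the WT libraries (replicates 1 to 3) and 54.9, 136 and 41.0 CPM in the same order of sST2-KO replicates, with a wide gap between the groups. Its mean fell from 526 ± 126 to 77.2 ± 51.1 CPM (SD, n = 3 per group), 14.7% of the WT level, with a log2 fold change of -2.77 (SE 0.48, 95% interval -3.90 to -1.64, adjusted p = 0.0154 by edgeR). This was the second lowest log2 fold change among the members. *Agpat2* shares 1088 exonic bases with the opposite-strand gene *Egfl7*, which did not move with it (log2 fold change -0.06, adjusted p = 0.885 by edgeR). In sST2-KO replicates 1 to 3, *Egfl7* had 2106, 1599 and 1182 counts, above the 790, 1145 and 416 of *Agpat2*. Within the shared bases, reads of this pair cannot be told apart either. *Agpat3* (chr10:78105003-78208987, minus strand) was at 359.9, 469 and 667 CPM in the WT libraries (replicates 1 to 3) and 148, 143 and 86.5 CPM in the same order of sST2-KO replicates, again without overlap. Its mean fell from 499 ± 156 to 126 ± 34.2 CPM (SD, n = 3 per group), with a log2 fold change of -1.99 (SE 0.33, 95% interval -2.75 to -1.23, adjusted p = 0.0148 by edgeR). Both calls were lost without WT replicate 3 (adjusted p = 0.0646 for *Agpat2* and 0.0614 for *Agpat3*).

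The lipins dephosphorylate phosphatidate to diacylglycerol, and the 2 lipin members differed in result. *Lpin1* (chr12:16584818-16703913, minus strand), the main lipin of adipose tissue, was at 458, 406 and 702 CPM in the WT libraries (replicates 1 to 3) and 274, 184 and 150.4 CPM in the same order of sST2-KO replicates. These groups did not overlap, but the gap between them was narrower than for *Gk*. Its mean fell from 522 ± 158 to 203 ± 63.9 CPM (SD, n = 3 per group), 38.9% of the WT level, with a log2 fold change of -1.37 (SE 0.32, 95% interval -2.12 to -0.61, adjusted p = 0.0285 by edgeR). Of the 7 called members *Lpin1* moved least, and its call was lost without any one of WT replicate 2 (adjusted p = 0.0570), WT replicate 3 (0.104), sST2-KO replicate 2 (0.0711) and sST2-KO replicate 3 (0.0646). *Lpin2* (chr17:71489555-71556909, plus strand), a paralog best known from liver, was at 16, 43.9 and 19.9 CPM in the WT libraries (replicates 1 to 3) and 25.4, 19.5 and 36.5 CPM in the same order of sST2-KO replicates. The sST2-KO values lay within the range of the WT values. Its log2 fold change was 0.02 (SE 0.41, 95% interval -0.94 to 0.98, adjusted p = 0.978 by edgeR), an interval that spans nearly 2-fold in either direction. Its highest library was WT replicate 2, the library with the *Alb* counts, and leaving that library out gave a log2 fold change of 0.59. The part of liver RNA in the *Lpin2* value was not tested. Relative to the pan-adipocyte genes of the same library, the difference of *Lpin2* was 1.15 on the log2 scale, with overlap between the groups.

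*Dgat1* and *Dgat2* encode unrelated enzymes that add the last fatty acid, and both had wide ranges in the knockout. *Dgat1* (chr15:76385083-76396476, minus strand) was at 435, 858 and 697 CPM in the WT libraries (replicates 1 to 3) and 163, 643 and 325 CPM in the same order of sST2-KO replicates. Only sST2-KO replicate 2 reached the WT range. The means were 663 ± 214 CPM in WT and 377 ± 244 CPM in sST2-KO (SD, n = 3 per group), and the log2 fold change was -0.82 (SE 0.50, 95% interval -1.99 to 0.35, adjusted p = 0.280 by edgeR). *Dgat1* shares 2486 exonic bases with *Hsf1* on the opposite strand, whose counts, 309 to 540, were low beside the 2342 to 9196 of *Dgat1*. *Dgat2* (chr7:98802491-98831991, minus strand) was at 339, 826 and 521 CPM in the WT libraries (replicates 1 to 3) and 449, 169 and 67.0 CPM in the same order of sST2-KO replicates. Here sST2-KO replicate 1 lay within the WT range, and sST2-KO replicates 2 and 3 were lower than every WT library. The means were 562 ± 246 CPM in WT and 228 ± 198 CPM in sST2-KO (SD, n = 3 per group), and the log2 fold change was -1.30 (SE 0.66, 95% interval -2.84 to 0.23, adjusted p = 0.197 by edgeR). Its sST2-KO libraries spanned 6.71-fold, the widest range of any member, and without sST2-KO replicate 1 it was called at a log2 fold change of -2.26 (adjusted p = 0.0426). *Dgat1* and *Dgat2* were both highest in WT replicate 2, and without it their log2 fold changes were -0.59 and -0.91. The intervals of both genes are wide, and each includes 0 as well as the change seen in *Lpin1*.

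**Figure D2:**
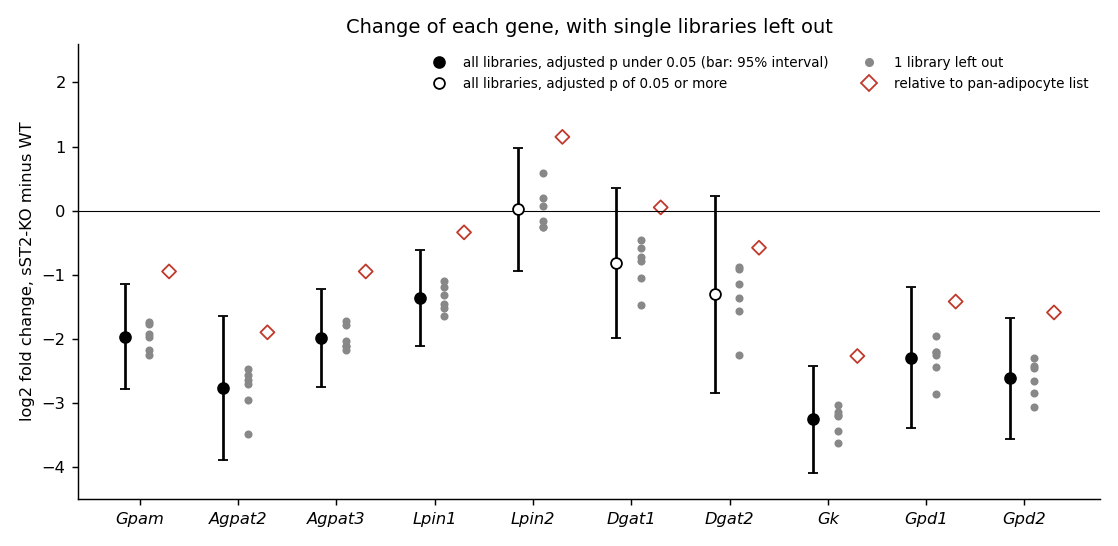
Log2 fold change (sST2-KO minus WT) of each gene with its 95% interval (black), the values with 1 library left out (grey) and the value relative to the pan-adipocyte list (red diamonds). *Gk* stays between -3.63 and -3.03 when single libraries are left out, and *Dgat2* ranges from -2.26 to -0.88.

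The level of each member was followed per library. The 10 members summed to 5485, 7117 and 7929 CPM in the WT libraries (replicates 1 to 3) and to 1852, 2507 and 1136 CPM in the same order of sST2-KO replicates. *Gpd1* supplied the largest part of these sums in every WT library. sST2-KO replicate 3 was the lowest knockout library for 7 of the 10 members, and it also had the least pan-adipocyte RNA, the most muscle RNA and 6.80% mitochondrial counts, against 11.8% to 16.6% in the other libraries. Without it the log2 fold changes of the 7 called members lay between -3.21 for *Gk* and -1.20 for *Lpin1*, and 6 of the 7 kept their call. WT replicate 2 was the highest WT library for 4 members (*Agpat2*, *Lpin2*, *Dgat1* and *Dgat2*) and the lowest for 4 others (*Gpam*, *Lpin1*, *Gk* and *Gpd2*).

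Levels were set side by side between genes as CPM per kilobase of merged exon. In WT, *Gpd1* was highest at 928 ± 165, and its lowest library was above the highest of every other member. *Dgat1* (146 ± 46.9), *Agpat2* (117 ± 28.0) and *Dgat2* (93.0 ± 40.7) followed with overlapping ranges. *Gk* (46.9 ± 10.8), *Lpin1* (43.9 ± 13.3), *Gpd2* (43.9 ± 16.5), *Agpat3* (36.7 ± 11.5) and *Gpam* (32.7 ± 9.56) formed a next tier in which neighbours overlapped, and *Lpin2* was lowest at 2.08 ± 1.18 (SD, n = 3 for each). In sST2-KO, *Gpd1* (189.6 ± 109.7) was still first by its mean but overlapped with *Dgat1* (82.9 ± 53.7). *Dgat2* (37.8 ± 32.8), *Agpat2* (17.2 ± 11.4) and *Lpin1* (17.1 ± 5.37) came next, each overlapping with its neighbour. *Gk* went from place 5 in WT to place 9 in sST2-KO, at 4.89 ± 1.93 (SD, n = 3), where it overlapped with *Gpd2* above it but not with *Lpin2* below it. The merged exons of all annotated transcripts can be longer than the transcript present in BAT, so these levels are approximate between genes.

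Ratios of members within a library do not depend on how libraries were scaled. The log2 ratio of *Gk* to *Gpd1*, the enzymes that use glycerol and dihydroxyacetone phosphate as sources, was -2.49, -3.50 and -2.94 in the WT libraries (replicates 1 to 3) and -4.39, -4.12 and -3.0 in the same order of sST2-KO replicates. sST2-KO replicate 3 lay within the WT range, and the difference of means was -0.86 (exact two-sided permutation test, p = 0.200, adjusted over the 5 ratios 0.50). The log2 ratio of *Gpd1* to *Gpd2* was 3.08 ± 0.57 in WT and 3.26 ± 0.43 in sST2-KO (SD, n = 3, exact permutation p = 0.900, adjusted 0.900), a difference of 0.18 that was smaller than the spread between libraries. The log2 ratio of *Agpat2* to *Agpat3* was 0.09, 0.40 and -0.21 in WT and -1.43, -0.07 and -1.08 in sST2-KO, which placed sST2-KO replicate 2 inside the WT range (difference -0.95, exact permutation p = 0.200, adjusted 0.50). For *Lpin1* to *Lpin2* the log2 ratio was 4.83, 3.21 and 5.13 in WT and 3.43, 3.23 and 2.04 in sST2-KO (difference -1.49, exact permutation p = 0.300, adjusted 0.50). The WT range was wide because of WT replicate 2, and without it the difference was -2.08. The log2 ratio of *Dgat1* to *Dgat2* was near 0 in WT, at 0.36, 0.05 and 0.42, and was -1.46, 1.93 and 2.28 in sST2-KO (difference of means 0.64, exact permutation p = 0.600, adjusted 0.750). Each knockout library was thus farther from equal counts of the 2 DGAT genes than each WT library. Of the knockout libraries, 1 lay toward *Dgat2* and the others toward *Dgat1*. Counts were not divided by exon length here, so equal counts need not mean equal amounts of transcript. The groups overlapped in 5 of the 5 ratios by order, and with 3 libraries against 3 the smallest p that this test can give is 0.1.

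**Figure D3:**
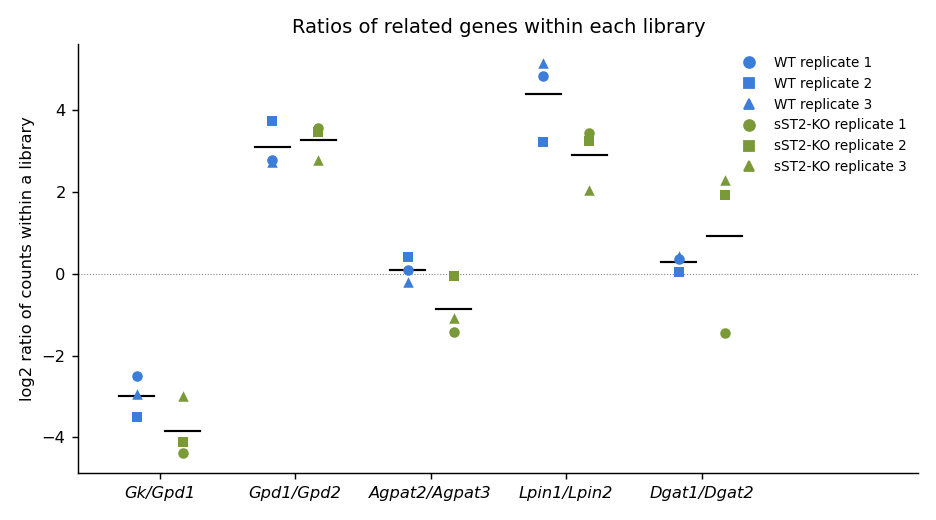
Log2 ratio of the counts of 2 members within each library, with a horizontal bar at each group's mean. The *Dgat1*/*Dgat2* ratio lies between 0.05 and 0.42 in WT and between -1.46 and 2.28 in sST2-KO.

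Members were also set against the mean log2 level of the 10 pan-adipocyte genes in the same library, which was itself lower in sST2-KO by a difference of -1.03 on the log2 scale. Relative to that list, *Gk* was at -1.58, -2.29 and -1.79 in the WT libraries (replicates 1 to 3) and -4.89, -3.85 and -3.73 in the same order of sST2-KO replicates, a difference of -2.27. *Agpat2* (-1.90), *Gpd2* (-1.59), *Gpd1* (-1.42), *Gpam* (-0.95) and *Agpat3* (-0.95) were likewise lower in sST2-KO relative to the list, without overlap between the groups. The decrease exceeded that of the list's mean in 8 of the 10 members, these 6 and, with overlap, *Lpin1* and *Dgat2*. The share of all genes tested that was lower on this scale was not computed, so the count of 6 has no background beside it. *Lpin1* (-0.34), *Dgat2* (-0.58), *Dgat1* (0.05) and *Lpin2* (1.15) overlapped between the groups on this scale. The brown adipocyte genes had a lower median log2 fold change than the members, -2.58 against -1.98. Of those 12 genes, 8 were called lower and 1 higher. The values relative to the pan-adipocyte list are descriptions, and the part of adipocyte content in the members' levels was not tested.

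For the members other than *Gpd1*, the gene with the most similar profile was named by Pearson's r of log2 CPM over the 6 libraries, among 11614 genes. The nearest were *Ppp1cb* for *Gk* (0.999), *Cycs*, the gene for cytochrome c, for *Gpd2* (0.999), *Arfip2* for *Gpam* (0.999), *Aldh4a1* for *Agpat2* (0.999) and *Uqcr11*, a subunit of respiratory complex III, for *Agpat3* (0.999). For *Lpin1* the nearest was *1700101I11Rik* (0.998), for *Dgat1* *Noct* (0.996), for *Dgat2* *Mgst1* (0.997) and for *Lpin2* *Fat1* (0.978). These values are descriptions over 6 libraries in 2 groups, have no test, and for a member that differed between the groups include that difference. Each is the highest r found among the 11614 genes. The members that were not called, *Dgat1*, *Dgat2* and *Lpin2*, also reached 0.978 to 0.997, so a high r here does not show a link between genes.

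The rest of the route was followed in 5 lists of other genes. Together, 33 of 39 were tested, of which 11 were called lower, 3 higher and 19 not called, with a median log2 fold change of -0.40. As shares, 33.3% of those tested were lower and 9.09% higher, beside the 9.10% and 10.5% of all genes given above, so the share called higher was near that of all genes. The 14 calls were less firm than the count alone shows. None of them held without WT replicate 3, and the fits that left out another library called 5 to 10 lower and 0 to 2 higher, with 5 lower and 0 higher without WT replicate 2, 6 lower without sST2-KO replicate 3, 7 lower without sST2-KO replicate 2 and 1 higher without sST2-KO replicate 1. Among other glycerolipid enzymes, 4 of 11 tested were lower and 0 higher. *Gpat4*, the acyltransferase of the endoplasmic reticulum for the first step, was at 652 to 1113 CPM in WT and 90.8 to 253 CPM in sST2-KO (log2 fold change -2.29, adjusted p = 0.0168). *Agpat1* was 82.1 to 133 CPM in WT and 50.3 to 58.7 CPM in sST2-KO (log2 fold change -1.07, adjusted p = 0.0211). The other 2 called were *Lclat1*, whose call was lost in 5 of the 6 fits without 1 library (highest adjusted p = 0.167) and with total-count scaling (0.115), and *Pgp*, whose call was lost in 4 of the 6 (highest 0.102). *Agpat1* lost its call in 3 of the 6, and *Gpat4* lost its call in 1, that without WT replicate 3. Of the rest, *Gpat3*, *Agpat4*, *Agpat5*, *Lpin3*, *Mogat1*, *Gpd1l* and *Gk5* were not called.

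Among glycerol channels and glyceroneogenesis genes, 2 of 5 tested were lower and 0 higher. *Aqp7*, the adipose glycerol channel, was at 287 to 343 CPM in WT and 41.9 to 167 CPM in sST2-KO (log2 fold change -1.66, adjusted p = 0.0426), a call that was lost in 5 of the 6 fits without 1 library (adjusted p up to 0.133) and held without sST2-KO replicate 2. *Pcx*, the gene for pyruvate carboxylase, was at 415 to 728 CPM in WT and 101 to 247 CPM in sST2-KO (log2 fold change -1.64, adjusted p = 0.0277), and lost its call in 3 of those 6 fits. *Pck1*, whose enzyme is the key step of glyceroneogenesis, was at 4931 to 8479 CPM in WT and 1195 to 4089 CPM in sST2-KO without overlap and was not called (log2 fold change -1.42, adjusted p = 0.0851 by edgeR), and DESeq2 called it (adjusted p = 0.00746).

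Among fatty acid activation genes, 1 of 5 was lower and 1 higher. *Acsl1*, the main long-chain acyl-CoA synthetase of adipocytes, was at 1982 to 2883 CPM in WT and 357 to 805 CPM in sST2-KO (log2 fold change -2.22, adjusted p = 0.0154). *Acsl6* was higher from a level near 0, with 9, 1 and 0 counts in WT and 81, 11 and 104 in sST2-KO (log2 fold change 4.08, adjusted p = 0.0370), and its call was lost in 4 of the 6 fits without 1 library. Among droplet assembly and lipin phosphatase genes, 2 of 5 tested were lower, *Fitm2* (log2 fold change -1.82, adjusted p = 0.0206) and the seipin gene *Bscl2* (-1.43, adjusted p = 0.0135), and 1 was higher. The latter, *Fitm1*, is known from skeletal muscle, and its level was 1.12, 0.746 and 0.246 CPM in WT and 4.52, 3.32 and 14.5 CPM in sST2-KO (log2 fold change 3.34, adjusted p = 0.0237). *Fitm1* and *Fitm2* each lost the call in 2 of the 6 fits without 1 library, those without WT replicate 2 or 3. *Fitm1* and *Acsl6* were both highest in sST2-KO replicate 3, the library with the most muscle RNA, and the part of muscle RNA in their values was not tested. *Ctdnep1* and *Cnep1r1*, the phosphatase that activates lipins and its regulatory subunit, were not called.

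Phosphatidate and diacylglycerol also feed phospholipid synthesis, and of 7 genes of these branches 2 were lower, 1 was higher and 4 were not called. *Pcyt2*, which acts in phosphatidylethanolamine synthesis, was lower (log2 fold change -1.43, adjusted p = 0.0168), as was *Chpt1*, which makes phosphatidylcholine from diacylglycerol (-1.35, adjusted p = 0.0473). The call of *Chpt1* was lost with total-count scaling (adjusted p = 0.0702) and in 5 of the 6 fits without 1 library (up to 0.156), and held without sST2-KO replicate 1. *Cds2*, which takes phosphatidate toward phosphatidylinositol, was at 73.5 to 93.2 CPM in WT and 123 to 184 CPM in sST2-KO and was called higher (log2 fold change 0.81, adjusted p = 0.0394), but held its call only without sST2-KO replicate 3 (0.0427) among the 6 fits that left out 1 library, with adjusted p of up to 0.158 in the others. Whether the members differ from these lists was not tested.

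**Figure D4:**
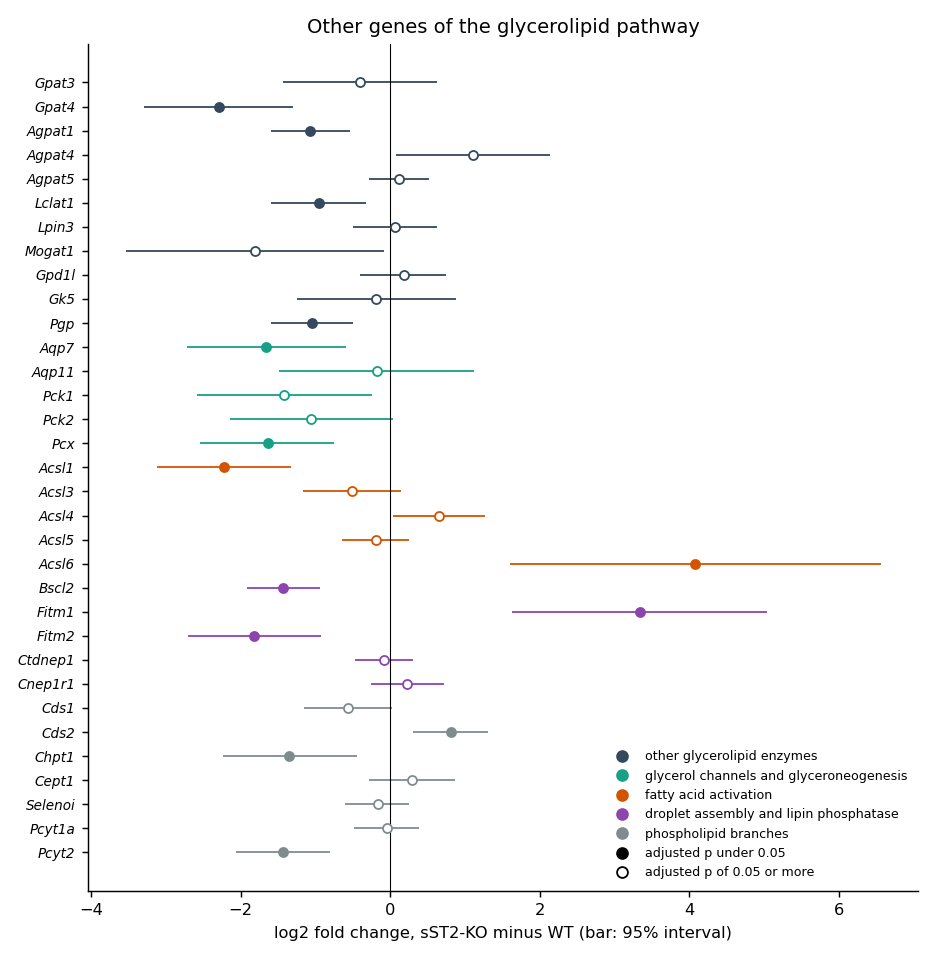
Log2 fold change (sST2-KO minus WT) with its 95% interval for the 33 tested genes of the 5 other lists, coloured by list. Filled circles mark an adjusted p under 0.05, which 11 genes reach below 0 and 3 (*Acsl6*, *Fitm1* and *Cds2*) above 0.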

How the data were processed

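RNA-seq counts from BAT of 3 WT and 3 sST2-KO mice were used. The authors made poly-A libraries with a kit that does not mark strand, aligned paired reads to mm39 (per the labels FastQC 0.12.1, HISAT2 2.2.1) and counted them with htseq-count, and the deposited values are raw counts per gene symbol without normalization. The annotation and strand setting of the counting are not given in the sources used here. Samples were grouped by their titles, and 0 columns were left unused. Members and lists were chosen with earlier results of these data known. The named genes are all members and, in each other list, at most the 2 largest called changes per direction, and further genes of these lists are named with values where a result needed them.

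Genes were filtered with filterByExpr, scaled by TMM and tested with edgeR 4.0.16 (glmQLFit and glmQLFTest, R 4.3.3) on all 6 libraries without covariates. The study used DESeq2, kept here as an alternative (1.42.0). SE was the size of the log2 fold change over the square root of F. Same-group libraries differed beyond sampling noise (chi-square per degree of freedom 36.6 to 104). Ratios used counts plus 0.5. Exons came from GENCODE on GRCm39 and promoter windows from RefSeq on GRCm38.p6. *Gpat3* and *Selenoi* were in the table under older symbols, and *Ldaf1* was not matched. The profile match of *Gpd1* is not reported here. Alternatives were other scaling, filters, robust estimation, DESeq2, a replicate block and leaving out each library. Depth of 8159442 to 12874809 counts per library puts the lowest member count at 162.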

Additional observations from a re-analysis of the deposited data

How the results depend on the processing

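The count of 7 members called lower, and of 7 called more than 2-fold lower, was 7 with DESeq2, median-ratio scaling, total-count scaling, no filter, a minimum of 10 counts in every sample and robust estimation. It ranged from 1 to 7 when single libraries were left out. With the replicate number as a block, both counts were 0, over all genes 0 were called lower and 0 higher (4623 at an unadjusted p under 0.05), and the 7 members had adjusted p of 0.0644 to 0.0867. The deviations of same-numbered libraries from their group means had r of -0.06, 0.21 and -0.31. Whether a number marks a shared litter or batch is not stated, and with 3 libraries per group these values cannot decide it. DESeq2 called 1887 genes lower and 2050 higher, against 1323 and 1524 by edgeR. Over all genes, calls dropped to 22 lower and 36 higher without WT replicate 3, to 483 and 393 without WT replicate 2, and to 692 and 724 without sST2-KO replicate 3. Total-count scaling moved the median of all genes from 0.034 to 0.293 and the calls to 891 lower and 2181 higher, ended the calls of *Lclat1* and *Chpt1*, and turned 6 genes that were not called (log2 fold changes of 0.08 for *Gk5*, 0.05 for *Aqp11*, 0.08 for *Acsl5*, 0.19 for *Ctdnep1*, 0.08 for *Selenoi* and 0.20 for *Pcyt1a*). Leaving out single libraries turned the sign of values that were not called, with ranges of -0.26 to 0.59 for *Lpin2*, -0.75 to 0.12 for *Gpat3*, -0.11 to 0.25 for *Lpin3*, -0.80 to 0.13 for *Gk5*, -0.56 to 0.39 for *Aqp11*, -0.18 to 0.08 for *Pcyt1a* and -0.04 to 1.83 for the *Dgat1*/*Dgat2* ratio. Of the 14 genes called in the other lists, 2 lost their call with total-count scaling, 14 lost it with the block, and 2 (*Acsl6* and *Fitm1*) were not tested with a minimum of 10 counts. The cause was not tested. With 3 libraries per group, a 95% interval of *Dgat2* spans -2.84 to 0.23.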
